A study of Macaca mulatta with 16 samples.

Results

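Transcripts of 9 enzymes of the citrate cycle, CS, IDH2, IDH3A, OGDH, SUCLA2, SUCLG1, SDHA, FH and MDH2, were followed through 2 RNA extraction methods in cardiac tissue of 8 rhesus macaques. They were chosen by gene symbol, as enzymes of the cycle, and all 9 were found among the 19425 genes of the table. The citrate cycle runs in the mitochondrial matrix. It takes up the acetyl group that fatty acid oxidation and pyruvate dehydrogenase deliver, releases it as carbon dioxide, and passes the electrons to the respiratory chain. Heart muscle, which contracts without pause and burns mostly fatty acids, is densely packed with mitochondria, and cycle enzymes are abundant in it.

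The tissue was formalin-fixed and paraffin-embedded (FFPE). It came from a study of a right ventricular pressure overload model in which the animals were perfused with paraformaldehyde, and the blocks had been kept at room temperature for over a year. Neither the chamber of the heart nor the treatment of each animal was given, so all 8 animals were described together. Method QE was the AllPrep DNA/RNA FFPE kit (Qiagen) with a changed ethanol wash after removal of the paraffin, and Method BL was the CELLDATA RNAstorm FFPE kit with a changed lysis step. Each animal gave 1 library per method, 16 libraries in all. Because both libraries of an animal came from separate extractions, a difference between them held extraction, library preparation and the piece of tissue together, and these cannot be told apart.

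Estimated counts summed to 15.0 M to 25.8 M per library for Method BL, with a median of 17.8 M (n = 8), and to 19.3 M to 25.7 M for Method QE, with a median of 22.6 M (n = 8). The 9 enzymes together made up 0.140% to 0.238% of these counts for Method BL (median 0.189%) and 0.153% to 0.242% for Method QE (median 0.174%). All other levels below are CPM, counts divided by library size after scaling by the trimmed mean of M-values (TMM). The cardiac label held: 9 of 12 cardiomyocyte markers were listed under their symbols, and their summed level was 12108 to 32193 CPM for Method BL and 22523 to 33901 CPM for Method QE. The Method BL library of animal rh2957 stood apart. Its cardiomyocyte markers, at 12108 CPM, were the lowest of the Method BL libraries, its leukocyte markers (7 of 7 listed, 353 CPM) and adipocyte markers (5 of 5 listed, 202 CPM) were the highest, and the medians of Method BL were 24712, 115 and 29.2 CPM. In the Method QE library of the same animal the cardiomyocyte markers were also the lowest of their method (22523 CPM). Its leukocyte markers were again the highest (248 CPM), while the adipocyte markers were at 22.2 CPM. The method differences are given with and without this animal.

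CS lies on chr11:55844972-55891612, IDH2 on chr7:68868126-68893935, IDH3A on chr7:55384491-55407590, OGDH on chr3:70515978-70611931 and SUCLA2 on chr17:26381176-26450151 of the Mmul_10 assembly. SUCLG1 lies on chr13:24046872-24083291, SDHA on chr6:195493-229328, FH on chr1:7562328-7605200 and MDH2 on chr3:45042500-45066532. Each interval is the whole gene, introns included, as Ensembl gives it. FH, the enzyme with the lowest counts beside SUCLA2, still had 562 to 1547 estimated counts per library, and SUCLA2 had 441 to 1572. CS overlapped COQ10A on the opposite strand, a gene with 524 to 3121 counts, and OGDH overlapped TMED4, with 635 to 1199 counts. Whether the counting used strand is not given in the sources used here, so reads of these partners may be held in the CS and OGDH levels. IDH2 overlapped ZNF710 (107 to 242 counts) and IDH3A overlapped ACSBG1 (2 to 284 counts) in the same way, as did FH a gene with at most 13.0 counts. The estimated counts need not be whole numbers. CS was not within 0.05 of a whole number in any of the 16 libraries, and SDHA was in 1, whereas IDH3A, SUCLA2, SUCLG1 and FH were in all 16. The genome was searched with each RefSeq transcript for alignments elsewhere of at least 200 bases and 85% identity. Places where these covered at least 10% of the transcript were found for CS (1 place), IDH3A (1), SUCLA2 (3) and FH (2). The CS copy, on chr2:168856694-168859635, covered 99.4% of the transcript at 86.5% identity. No such place was found for IDH2, OGDH, SUCLG1, SDHA and MDH2, but copies that align only in pieces under 200 bases were not counted.

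The stretch of 250 bases upstream of the RefSeq start of each gene was read from Mmul_10 for short promoter motifs on both strands. Sequences of a gene without a match and a gene with several are shown: IDH2, which like OGDH and SUCLG1 held none and whose level per transcript length was at the top with that of CS, and FH, which held 4 and whose level was low. Capitals mark GGGCGG (the GC box, bound by SP1) or CCAAT, on either strand, and no marked stretch overlaps another.
IDH2, chr7:68894016-68894265, minus strand: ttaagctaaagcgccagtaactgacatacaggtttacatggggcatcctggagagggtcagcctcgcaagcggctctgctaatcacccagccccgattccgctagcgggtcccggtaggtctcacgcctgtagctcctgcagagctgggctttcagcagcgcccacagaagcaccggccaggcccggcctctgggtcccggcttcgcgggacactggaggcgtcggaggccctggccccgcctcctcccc
FH, chr1:7562054-7562303, plus strand: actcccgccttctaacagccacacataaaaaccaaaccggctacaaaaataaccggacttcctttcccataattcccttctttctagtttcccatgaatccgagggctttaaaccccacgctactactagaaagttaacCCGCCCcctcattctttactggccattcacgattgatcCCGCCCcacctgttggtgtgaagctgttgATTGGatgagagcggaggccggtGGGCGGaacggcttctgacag

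The FH stretch held 3 GC boxes and 1 CCAAT, and that of CS held 3 and 2. The CS stretch (chr11:55875780-55876029, minus strand) lies within the Ensembl interval of CS, so the RefSeq and Ensembl starts differ there. They also differ for MDH2 and IDH3A. The MDH2 stretch (chr3:45066448-45066697, minus strand) overlaps the Ensembl interval, which ends at 45066532. The IDH3A stretch (chr7:55383204-55383453, plus strand) ends well before the Ensembl start at 55384491. GGGCGG occurred upstream of 5 of the 9 genes (CS, SUCLA2, SDHA, FH and MDH2) and in 43.4% of 21102 promoters of the same length, and CCAAT upstream of 4 of 9 (CS, IDH3A, SUCLA2 and FH) and in 31.0% of promoters. The motifs of 3 factors linked to mitochondrial genes, TCAAGGTCA (oestrogen-related receptors, 0.171% of promoters), that of NRF1 by its palindromic core (0.91%) and CCGGAAG (ETS factors, 7.00%), had 0 matches in the 9 stretches, as had TATAAA (9.90%). GC content ranged from 48.4% (OGDH) to 68.4% (SDHA), with a median of 57.2% over all promoters. The search covers these exact letters in these windows and nothing more. Near variants, such as GCGCAGGCGC upstream of SDHA and TTAAGGTCA upstream of CS, were not counted.

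The most and the least abundant of the 9 enzymes were far apart. Divided by the length of the longest RefSeq transcript, mean levels over the 16 libraries were 177 CPM per kb for IDH2, the NADP-dependent isocitrate dehydrogenase of mitochondria, and 176 for CS, citrate synthase, which joins acetyl-CoA to oxaloacetate. OGDH, the decarboxylating subunit of 2-oxoglutarate dehydrogenase, had 88.7 CPM per kb, and MDH2, the mitochondrial malate dehydrogenase that closes the cycle, had 88.2. SDHA, the flavoprotein of succinate dehydrogenase and so of complex II of the respiratory chain, followed at 71.2 CPM per kb. SUCLG1, the alpha subunit shared by both succinyl-CoA ligases, stood at 55.6. IDH3A, the catalytic subunit of the NAD-dependent isocitrate dehydrogenase, had 36.8 CPM per kb. The lowest were FH, fumarase, at 23.4 and SUCLA2, the beta subunit of the ATP-forming succinyl-CoA ligase, at 17.8 CPM per kb.

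Neighbours in this order were separated in nearly all libraries, with 2 exceptions. IDH2 exceeded CS per kb in 8 of 16 libraries (ratio 0.83 to 1.23), and OGDH exceeded MDH2 in 9 of 16 (ratio 0.80 to 1.29). CS exceeded OGDH in 16 of 16 libraries, by 1.58 to 2.41 times, and the other neighbours kept their order in 15 or 16 of 16. The order depended on the length used. Per kb of coding sequence it ran CS, IDH2, MDH2, OGDH, IDH3A, SDHA, SUCLG1, SUCLA2, FH, with 0 of 9 genes in the same place, and per mean transcript length 7 of 9 kept their place.

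**Figure D1:**
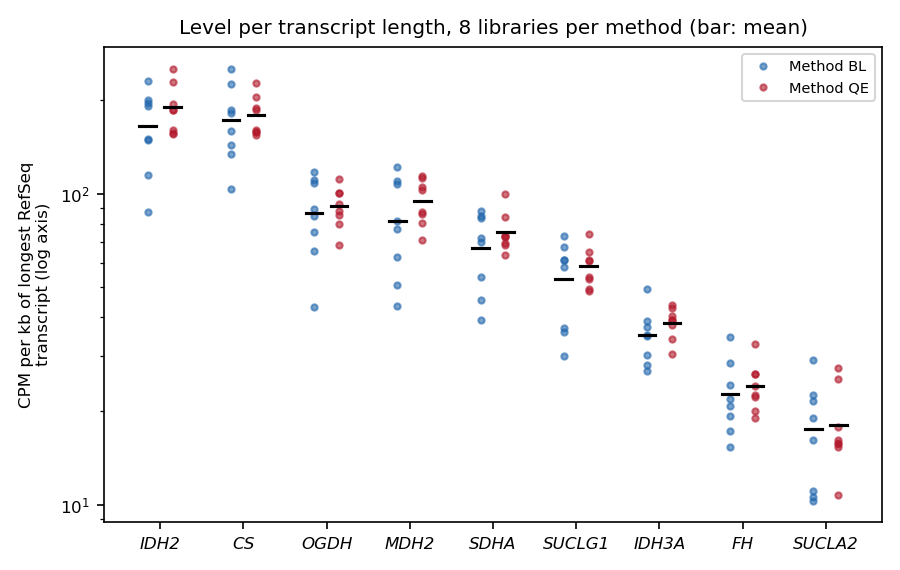
Level of each enzyme in CPM per kb of its longest RefSeq transcript, on a log axis, with 1 point per library (8 Method BL, 8 Method QE) and a bar at the mean of each method. IDH2 and CS lie level at the top, with means over all 16 libraries of 177 and 176, and SUCLA2 lies lowest at 17.8.

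Partner subunits of an enzyme were compared per kb of the longest RefSeq transcript. Their ratios depend on that length and were not computed per library by coding length. SUCLA2 was below SUCLG2, the beta subunit of the GTP-forming ligase, in all 16 libraries, with a median ratio of 0.60 for Method BL and 0.57 for Method QE. SUCLG1 exceeded SUCLA2 in all 16 (median ratios 3.09 and 3.24). IDH3A exceeded its partners IDH3B (1.66 and 1.64) and IDH3G (1.82 and 1.77) in all 16 libraries. SDHA exceeded SDHB, the iron-sulphur subunit, in all 16 (1.69 and 1.84), and OGDH exceeded DLST, the transferase subunit of its complex, in all 16 (1.61 and 1.65). Per kb of coding sequence the mean levels of OGDH and DLST over the 16 libraries were closer, at 125 and 109 CPM. Against DLD, which its complex shares with others, OGDH was higher in 1 of 16 (0.83 and 0.82). OGDHL, the paralogue of OGDH, was nearly silent, at a median of 0.964 CPM for Method BL and 0.827 CPM for Method QE.

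The comparison of the methods asked whether the choice of extraction moved these transcripts. None of the 9 enzymes differed between Method QE and Method BL in a quasi-likelihood test of edgeR that fitted method within animals (0 of 9 at a Benjamini-Hochberg adjusted p below 0.05, against 2.14% of 14165 genes tested). At an unadjusted p below 0.05 the count was 1 of 9, MDH2, against 18.0% of all genes tested. DESeq2 and limma-voom also called 0. They had 3 and 1 enzymes at an unadjusted p below 0.05, against 2350 and 2663 of 14165 genes tested. Estimated differences, Method QE minus Method BL, were above 0 for all 9, from 0.08 to 0.28 on the log2 scale, with a median of 0.15. Over all genes tested the median was 0.00 and 50.7% were above 0. These differences are relative to the TMM scaling: as a share of all counts, without that scaling, the 9 together were higher with Method QE in 3 of 8 animals. The 9 values come from the same libraries and are not independent of each other. In bulk tissue, fewer cells of a type and less RNA per cell cannot be told apart.

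At the entry of the cycle, CS was at 311, 510 and 752 CPM (lowest, median and highest of 8 libraries) for Method BL and at 462, 519 and 678 CPM for Method QE. The ranges overlapped almost wholly, and the highest library of both methods was that of animal r16010. The log2 fold change was 0.09 (SE 0.10, edgeR adjusted p = 0.676), with 5 of 8 animals higher in Method QE. IDH2 ranged from 152 through 295 to 399 CPM for Method BL and from 269 through 321 to 437 CPM for Method QE, and only the low ends of the ranges lay far apart. Its log2 fold change was 0.24 (SE 0.13, adjusted p = 0.329; 6 of 8 animals higher), and 0.12 without animal rh2957 (adjusted p = 0.536). IDH3A was at 84.97, 110 and 155 CPM for Method BL and at 95.9, 124 and 138 CPM for Method QE. In 7 of 8 animals Method QE gave the higher level, the most for any of the 9, but the difference was small (log2 fold change 0.15, SE 0.08, adjusted p = 0.343).

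In the middle of the cycle, OGDH was at 188, 380 and 513 CPM for Method BL and at 300, 395 and 489 CPM for Method QE (log2 fold change 0.12, SE 0.11, edgeR adjusted p = 0.601; 5 of 8 animals higher). SUCLG1 was at 44.1, 87.1 and 107 CPM for Method BL and at 71.2, 83.8 and 108 CPM for Method QE. The median was lower for Method QE although the fitted log2 fold change was 0.19 (SE 0.10, adjusted p = 0.332; 5 of 8 animals higher), and the 3 lowest Method BL libraries, of animals rh2957, I30 and r16116, had no counterpart in Method QE. SUCLA2 was at 22.5, 38.3 and 63.6 CPM for Method BL and at 23.5, 34.9 and 60.04 CPM for Method QE. Only 3 of 8 animals were higher with Method QE (log2 fold change 0.08, SE 0.12, adjusted p = 0.786), and without animal I30 the estimate was -0.022.

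At the end of the cycle, SDHA was at 93.4, 169 and 208 CPM for Method BL and at 151, 173 and 237 CPM for Method QE (log2 fold change 0.21, SE 0.11, edgeR adjusted p = 0.307; 6 of 8 animals higher). FH was at 27.6, 38.4 and 62.5 CPM for Method BL and at 34.2, 42.0 and 59.2 CPM for Method QE (log2 fold change 0.11, SE 0.10, adjusted p = 0.607; 3 of 8 animals higher). MDH2 had the largest estimate of the 9. It was at 103, 188 and 288 CPM for Method BL and at 169, 225 and 270 CPM for Method QE, and 6 of 8 animals were higher with Method QE. Its log2 fold change was 0.28 (SE 0.11, 95% interval 0.04 to 0.52, unadjusted p = 0.0238, adjusted p = 0.200 in edgeR), and 0.18 without animal rh2957 (adjusted p = 0.319). The upper bounds of the 95% intervals lay at 0.31 for CS and IDH3A, between 0.33 and 0.44 for OGDH, SUCLA2, SUCLG1, SDHA and FH, and at 0.51 and 0.52 for IDH2 and MDH2.

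**Figure D2:**
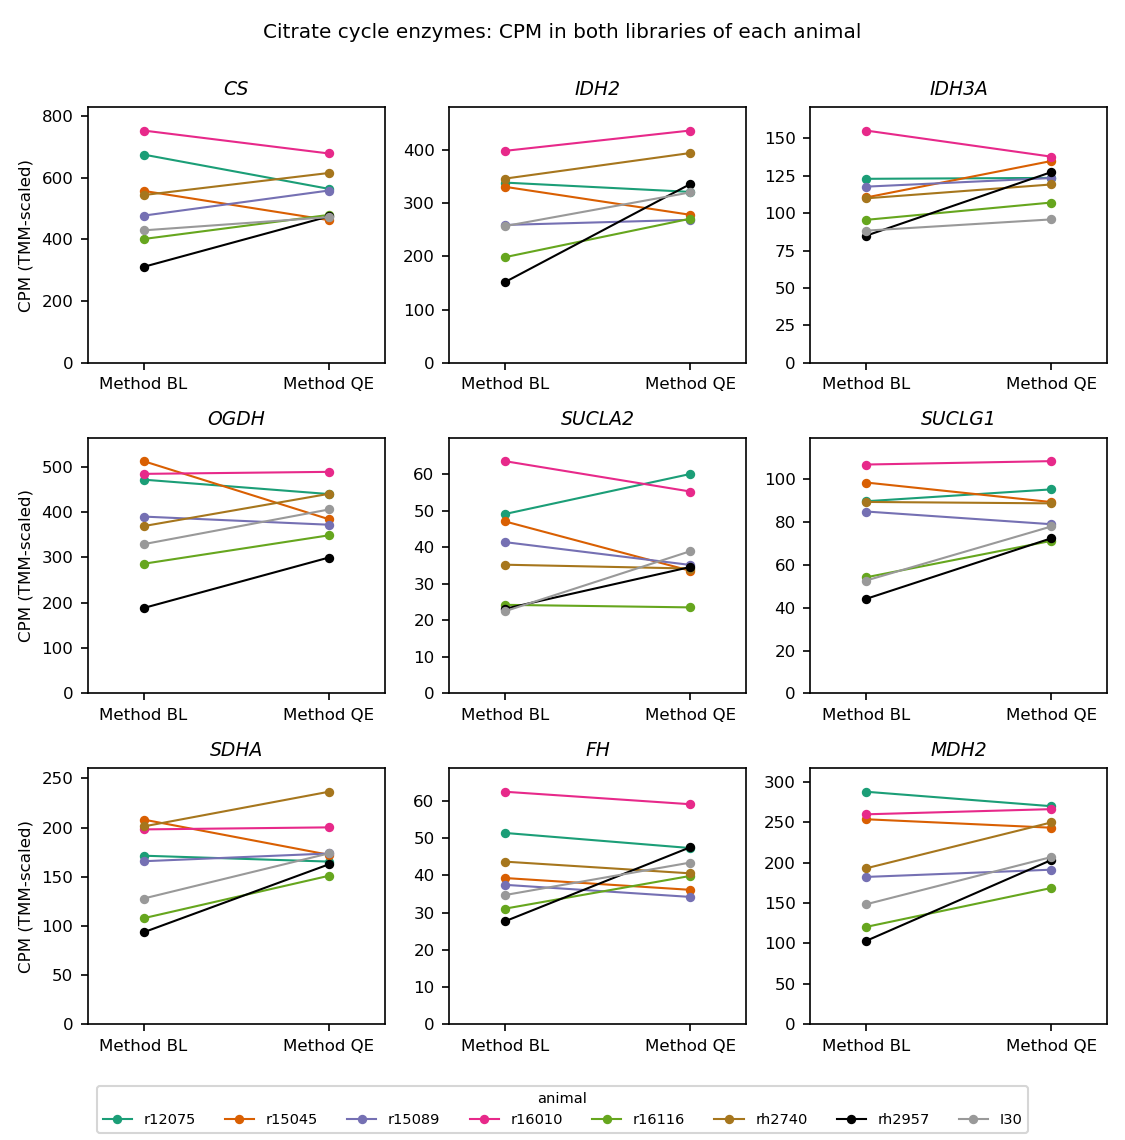
Level of each enzyme in CPM (TMM-scaled, linear axis from 0) in the Method BL and the Method QE library of each animal, with 1 line per animal. The line of animal rh2957 climbs in all 9 panels, and that of animal r15045 falls in 8 of 9.

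**Figure D3:**
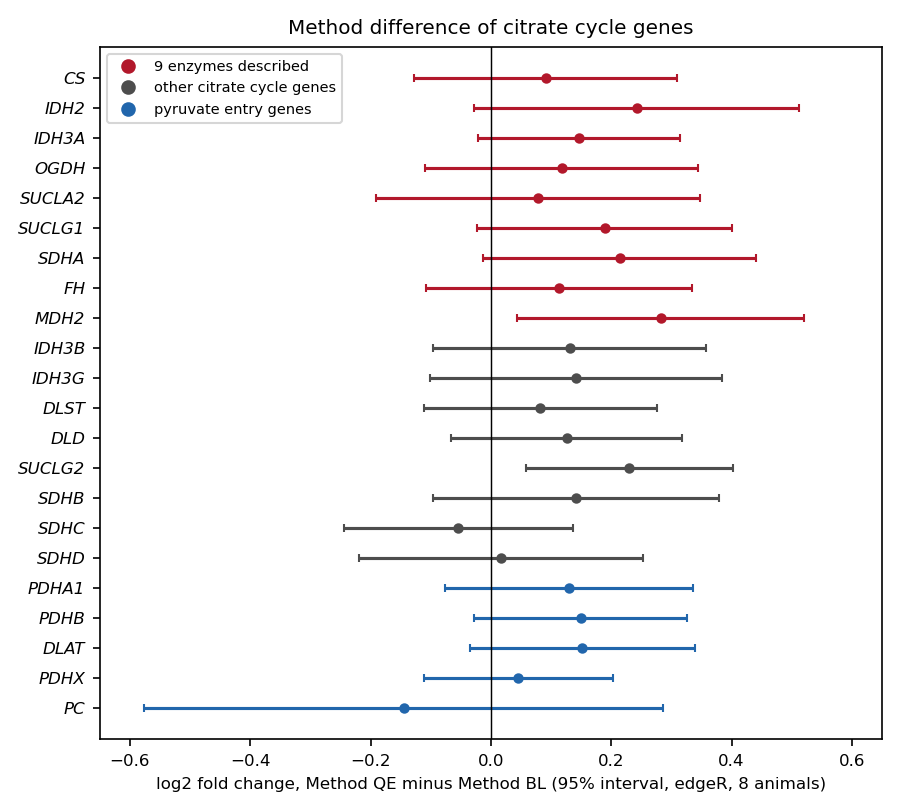
Log2 fold change, Method QE minus Method BL, with its 95% interval from edgeR over 8 animals, for the 9 enzymes, 8 other citrate cycle genes and 5 genes of pyruvate entry. The estimates of the 9 enzymes lie between 0.08 and 0.28, and no gene shown passed the test.

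The estimates above 0 were not shared evenly by the animals. In animal rh2957 all 9 enzymes were higher with Method QE, by a median of 0.71 on the log2 scale. In animal I30 all 9 were also higher, by a median of 0.32, and in animal r16116 8 of 9 were, by 0.36. Animal rh2740 had a median difference of 0.18 with 6 of 9 higher. Animals r15089 and r16010 were near 0 (0.05 and 0.01), and animals r12075 and r15045 lay below 0, at -0.08 and -0.25, with 3 and 1 of 9 higher. The median over all genes lay between -0.020 and 0.024 in every animal. For 8 of the 9 enzymes the largest difference between methods was that of animal rh2957, and for SUCLA2 it was that of animal I30 (0.79). IDH2 showed the widest gap in animal rh2957, 152 CPM with Method BL against 336 CPM with Method QE. Without animal rh2957 the 9 estimates remained above 0 but were smaller, with a median of 0.08. They were 0.007 for SUCLA2, 0.017 for CS and for FH, 0.039 for OGDH, 0.084 for IDH3A, 0.11 for SUCLG1, 0.12 for IDH2, 0.13 for SDHA and 0.18 for MDH2. Leaving out animal r15045 instead raised the median to 0.19. In that edgeR fit 4 of 9 enzymes had an unadjusted p below 0.05, against 2798 of 14148 genes tested. None was called, and the smallest adjusted p was 0.131.

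In the Method BL library of animal rh2957, 8 of the 9 enzymes were the lowest of the 8 Method BL libraries, and the remaining one, SUCLA2, was at 23.1 CPM, just above animal I30 at 22.5 CPM. With Method QE, only OGDH was lowest in that animal. The Method BL library in question was also the one with the lowest cardiomyocyte markers and the highest leukocyte and adipocyte markers, with the lowest summed level of the 13 mitochondrially encoded protein genes (172543 CPM; 277787 CPM with Method QE), and with the highest TMM factor of its method (1.36). Animal rh2957 also had the lowest cardiomyocyte and the highest leukocyte markers of the 8 Method QE libraries. Across all animals cardiomyocyte markers were higher with Method QE in 7 of 8, and 0 of the 9 listed passed the test between methods. Their part in the result was not tested. The names of the Method BL libraries end in B for 5 animals and in R for 3, including rh2957. What the endings mean was not given. In a test of the method difference by ending, with 5 animals against 3, edgeR called 0 of 9 enzymes and 0% of all genes tested (adjusted p = 0.998 for each enzyme; 0 of 9 at an unadjusted p below 0.05). A test that called no gene does not show that the endings were alike. Fitted within each ending, SUCLA2 had an estimate of 0.16 for B and -0.049 for R, and IDH3A had 0.05 and 0.32.

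Differences between the animals themselves were tested next. In a test of the 7 animal coefficients of the same edgeR fit, 5 of 9 enzymes differed between animals (31.5% of all genes tested did). They were SUCLA2 (adjusted p = 0.0109), MDH2 (0.0184), SUCLG1 (0.0198), OGDH (0.0331) and CS (0.0452). The other 4 were close to the threshold or above it: FH (0.0522), SDHA (0.0542), IDH3A (0.0617) and IDH2 (0.101). This count moved with single animals. It was 1 of 9 without animal r16010 (MDH2; 23.6% of all genes), 2 of 9 without animal r16116 (SUCLA2 and SUCLG1; 25.3%), 9 of 9 without animal r15045 (34.2%) and 8 of 9 without animal rh2957 (all but OGDH; 24.6%). DESeq2 called 9 of 9 enzymes and 5552 of the 14165 genes tested. With limma-voom the counts were 6 of 9 and 3635 of 14165. The SD of the animals' means of both libraries was 1.04 (IDH2) to 1.47 (SUCLA2) times the SD between the libraries of an animal. The median over all genes tested was 1.17 times. Such a mean still holds part of the spread between libraries, so a ratio of 1 does not mark an absence of animal differences.

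Animal r16010 was high throughout. It had the highest level of 6 of the 9 enzymes with Method BL (CS, IDH2, IDH3A, SUCLA2, SUCLG1 and FH) and of 6 with Method QE (CS, IDH2, IDH3A, OGDH, SUCLG1 and FH), and all 9 lay above the mean of the 8 animals with both methods, by a median of 0.53 and 0.35 on the log2 scale. Its cardiomyocyte markers ranked 2 of 8 with both methods, at 30065 and 32882 CPM. Animal r16116 was the opposite. All 9 enzymes lay below the mean with both methods, by a median of 0.45 and 0.24, and SUCLA2, SUCLG1, SDHA and MDH2 were lowest in it with Method QE. Animal r12075 had the highest MDH2 with both methods, 288 and 270 CPM, and the highest SUCLA2 with Method QE, 60.04 CPM. The spread over animals was wider with Method BL for every one of the 9 enzymes. The highest library exceeded the lowest by 1.83 (IDH3A) to 2.83 (SUCLA2) times with Method BL and by 1.44 (IDH3A) to 2.55 (SUCLA2) times with Method QE, and the lowest Method BL library was that of animal rh2957 for 8 of the 9.

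**Figure D4:**
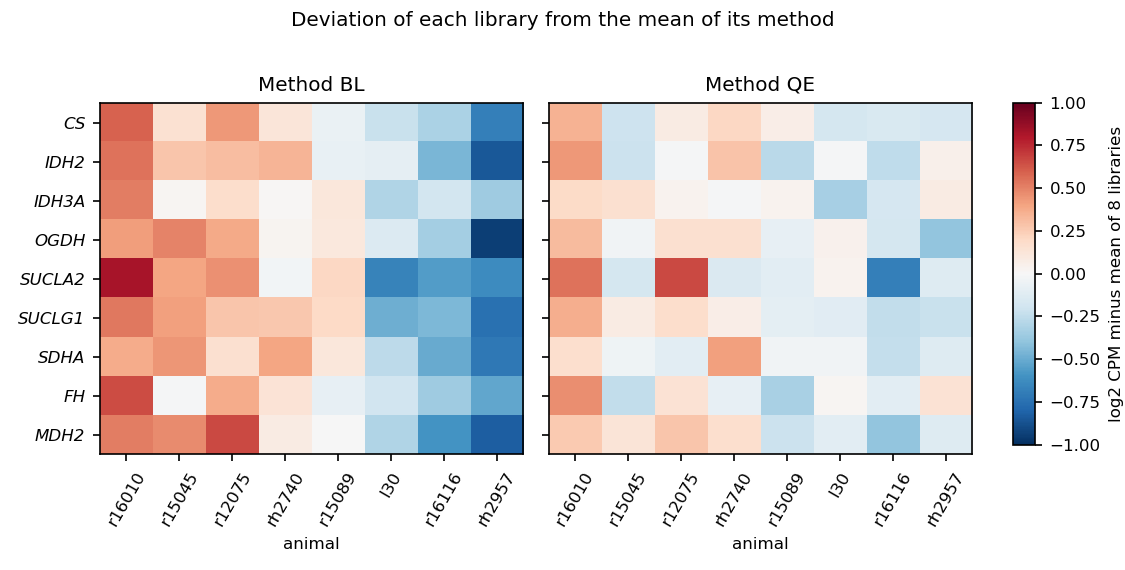
Deviation of log2 CPM from the mean of the 8 libraries of the same method, for each enzyme (rows) and animal (columns, ordered by the median over the enzymes with Method BL), red above and blue below the mean. Animal r16010 is red in every row of both panels, animal r16116 is blue in every row of both, and animal rh2957 is blue in all rows of Method BL but in 6 of 9 rows of Method QE.

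Whether the order of animals was carried from extraction to extraction was asked for each enzyme by correlating log2 CPM of both methods over the 8 animals, with exact permutation tests over all 40320 pairings, two-sided and adjusted over the 9 correlations. Pearson's r was highest for SUCLG1 (r = 0.86, exact permutation p = 0.00561, adjusted p = 0.0504), MDH2 (r = 0.82, p = 0.0167, adjusted p = 0.0528) and OGDH (r = 0.80, p = 0.0176, adjusted p = 0.0528). No r passed the threshold after adjustment. Spearman's rho passed it for SUCLG1 (rho = 0.90, exact permutation p = 0.00456, adjusted p = 0.0411) and MDH2 (rho = 0.86, p = 0.0107, adjusted p = 0.0482), and not for OGDH (rho = 0.60, p = 0.132, adjusted p = 0.253). Without the 2 animals farthest from the median of Method BL, r was 0.87 for SUCLG1, 0.81 for MDH2 and 0.80 for OGDH (exact permutation p = 0.0139, 0.0583 and 0.0639, n = 6). For the other 6 enzymes r lay between 0.43 (IDH2) and 0.72 (CS), with adjusted p between 0.103 and 0.281 by the same exact test. Their rho lay between 0.24 (FH) and 0.60 (SDHA). Without the 2 farthest animals, r was 0.86 for IDH3A, 0.71 for IDH2, 0.65 for SUCLA2, 0.49 for CS, 0.46 for SDHA and 0.43 for FH (exact permutation p between 0.0292 and 0.407, n = 6). The r of IDH2 was 0.73 without animal rh2957 and 0.18 without animal r16010, and that of FH, 0.49 in all, was -0.040 without animal r16010. The number of enzymes with an adjusted p below 0.05 for r was 3 without animal rh2957 (IDH3A, SUCLG1 and MDH2), 3 without animal r15045 (CS, OGDH and SUCLG1) and 2 without animal r15089 (SUCLG1 and MDH2).

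Among the other genes of the cycle, 0 of 9 differed between methods (edgeR; 1 at an unadjusted p below 0.05; 0 in DESeq2 and in limma-voom), with a median log2 fold change of 0.13 and 8 of 9 above 0. The median was 0.05 without animal rh2957. The smallest adjusted p was that of SUCLG2, at 64.0 CPM (median) for Method BL and 74.6 CPM for Method QE (log2 fold change 0.23, adjusted p = 0.151). DLD, the dihydrolipoyl dehydrogenase shared with the pyruvate complex, had a log2 fold change of 0.13 (adjusted p = 0.491). Between animals 7 of these 9 differed, against 31.5% of all genes tested (IDH3B, DLST, DLD, SUCLG2, SDHB, SDHC and SDHD). The smallest adjusted p was that of SDHD, a membrane anchor of complex II (0.000790 in edgeR), which ranged from 19.1 to 63.4 CPM with Method BL and from 17.5 to 57.3 CPM with Method QE. Of 3 tested assembly factors of succinate dehydrogenase, 0 differed between methods (1 at an unadjusted p below 0.05; 0 in DESeq2 and in limma-voom) or between animals in edgeR, and the smallest adjusted p between methods was 0.171 (SDHAF2, log2 fold change 0.19).

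Of 5 genes that bring pyruvate into the cycle (PDHA1, PDHB, DLAT and PDHX of the pyruvate dehydrogenase complex, and PC, pyruvate carboxylase), 0 differed between methods in edgeR (0 at an unadjusted p below 0.05, 0 in DESeq2 and in limma-voom), and all 5 differed between animals (31.5% of all genes tested did). PDHX had the smallest adjusted p between animals (0.00107), with 46.7 to 134 CPM for Method BL and 61.9 to 117 CPM for Method QE. In all 4 genes of the complex the highest animal was r16010 with both methods and the lowest with Method BL was rh2957. Without animal r16010 or without animal rh2957, 4 of the 5 differed between animals, against 23.6% and 24.6% of all genes tested.

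The 9 enzymes moved together over the libraries. The correlation of each with the mean of the 9, which contains it, ranged from 0.83 (IDH3A) to 0.97 (SUCLG1) over 16 libraries. Outside the 9, the genes whose log2 CPM ran closest to that mean were SLC25A3, the mitochondrial phosphate carrier (r = 0.97), TACO1, a translational activator of COX1 (0.97), ATP5F1C, a subunit of ATP synthase (0.97), IDH3B (0.97) and UQCRC2, a core subunit of complex III (0.97). These points share 8 animals and the scaling of each library, and the values are a description. Of 54 tested nuclear genes of oxidative phosphorylation, 53 had an estimate above 0 between methods, with a median of 0.22 (0.14 without animal rh2957), and 2 rose in Method QE (0.854% of all genes tested did). They were ATP5ME (log2 fold change 0.63, edgeR adjusted p = 0.0219, higher in 7 of 8 animals) and ATP5F1E (0.32, adjusted p = 0.0414, higher in 8 of 8), both small subunits of ATP synthase. The count of 2 was 0 without any of animals r15089, r16010, r16116, rh2740 and I30, and 1 without animal rh2957 (ATP5ME). Without animal r15045 it was 9, where 172 of 14148 genes tested rose. It was 7 in DESeq2, where 259 of 14165 genes tested rose. With an offset for GC content and transcript length it was 0 of 50, and the median was 0.07. The same 50 genes with no offset had 1 call and a median of 0.21. Between animals 36 of 54 differed, against 31.5% of all genes tested. The count was 12 without animal r16010, against 23.6%, and 21 without animal r16116, against 25.3%. The 13 protein genes of the mitochondrial genome had a median of 0.58, and 0 of 13 passed the test between methods in edgeR, DESeq2 or limma-voom. In edgeR 10 had an unadjusted p below 0.05 between methods, against 18.0% of all genes tested. Between animals 0 of 13 passed in edgeR (0 at an unadjusted p below 0.05). Without animal r15045 the median was 0.80, and 6 of 13 rose in Method QE in edgeR, against 172 of 14148 genes tested.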

How the data were processed

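The authors extracted RNA, depleted rRNA, made stranded total RNA libraries and sequenced paired ends. In Partek Flow they mapped reads to Mmul_10 (STAR 2.7.8a) and quantified genes of Ensembl Transcripts release 110 with the Partek E/M algorithm. The deposited values are estimated counts per gene, not normalized, and 88.7% lie within 0.05 of a whole number. The smallest summed count of a gene is 10. The filter behind it is not given in the sources used here.

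Pairs were formed from the animal named in each library, since replicate numbers do not match animals across methods. Deviations from the method means correlated at 0.31 to 0.69 within the 8 animals and at most at 0.24 between animals. All samples carry an extraction text for the Method QE kit, and groups followed titles and method labels. Counts were rounded, filtered with filterByExpr and TMM-scaled. EdgeR 4.0.16 (R 4.3.3) fitted animal and method, quasi-likelihood F tests covered 14165 genes, and adjustment was by Benjamini-Hochberg at 0.05. The edgeR tests of method and of animal were tried on simulated counts, and the other steps were not. Log2 CPM used a prior count of 2. Named beside the 9 enzymes were genes past the threshold, up to 3 per list by smallest adjusted p, and 5 genes closest to the mean of the 9 by Pearson's r over 16 libraries with a mean log2 CPM of at least 3. OGDHL and genes named by their levels or ratios only were added as partners. A further gene of the cycle was counted but is not reported here. Alternatives were no block, other scaling and filters, DESeq2 1.42.0, limma-voom 3.58.1, each animal left out, the name endings, and GC content and length. Copies were searched with BLAST 2.17.0. The enzymes and gene lists were chosen with earlier results of these data known. P-values of the fits with animal and method are set against the spread between libraries of the same animals. Those of the correlations come from permuting the pairings of the animals.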

Additional observations from a re-analysis of the deposited data

How the results depend on the processing

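Of the 9 enzymes, 0 were called between methods under all 20 alternatives, and 0 of the companion genes were. The total of 303 genes (121 higher and 182 lower in Method QE) was less stable. It was 5 with no replicate block (the pairing by animal left out), 592 in DESeq2, 49 in the 5 animals with ending B and 0 in the 3 with ending R. It was 44 (4 higher, 40 lower) with an offset for GC content and length, and 112 over the same 11774 genes with no offset, an alternative chosen after seeing the data. Upper quartile scaling gave 108 higher and 255 lower. Leaving out each animal gave 37 to 355 genes. Enzymes called between animals numbered 5, 9 in DESeq2, and 1 to 9 leaving out each animal. Over all genes tested these counts were 4461, 5552 and 3345 to 4840. This test was not run without the block or within an ending. Enzymes with a Pearson's r past the threshold numbered 0, and 0 to 3 leaving out each animal. Spearman's rho over all animals passed it for SUCLG1 and MDH2. The SUCLA2 estimate was -0.049 in the animals with ending R, and -0.022 to 0.16 leaving out each animal. The r of FH was -0.040 to 0.77 leaving out each animal. Per coding length, 0 of 9 enzymes kept their place in the order of levels. The cause of these changes was not tested. With 8 pairs, the upper bounds of the 95% intervals lay between 0.31 and 0.52 on the log2 scale, so differences up to these bounds are not excluded.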

Other observations

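PDK4, the kinase that shuts off pyruvate dehydrogenase when fatty acids are burned, was highest in animal rh2957. It was at 122, 248 and 1062 CPM (lowest, median and highest of 8) with Method BL and at 112, 286 and 1773 CPM with Method QE, and rh2957 was the highest animal with both methods. Its adjusted p between animals was 4.85e-07 in edgeR and 1.26e-06 without animal rh2957, and the method difference did not pass the test (log2 fold change 0.16, adjusted p = 0.457). PDP1, a phosphatase that switches the complex on, was lowest in animal rh2957 and highest in animal r16010 with both methods, from 41.3 to 168 CPM with Method BL and from 54.5 to 152 CPM with Method QE (edgeR adjusted p between animals 0.000111). Of the 7 regulators of pyruvate dehydrogenase 4 differed between animals (PDK1, PDK4, PDP1 and PDPR), against 31.5% of all genes tested. Without animal r15089 it was 2 of 7, against 3686 of 14186 genes. Between methods 0 of the 7 differed in edgeR (1 at an unadjusted p below 0.05, PDP2, log2 fold change -0.17, adjusted p = 0.255).

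Over all genes tested, 31.5% differed between animals. OXCT1, which activates ketone bodies at the expense of succinyl-CoA, ranged over animals from 53.7 to 219 CPM with Method BL and from 79.1 to 242 CPM with Method QE. The adjusted p between animals was 9.89e-06 in edgeR, and that between methods was 0.126 (log2 fold change 0.22, higher in 7 of 8 animals). Of 7 genes of side reactions 5 differed between animals (GLUD1, GOT1, OXCT1, PCCB and MMUT) and 0 between methods (1 at an unadjusted p below 0.05). Of 8 isoenzymes and related genes 4 differed between animals (MDH1, ME1, ME2 and ME3) and 0 between methods (0 at an unadjusted p below 0.05). IDH1, the cytosolic counterpart of IDH2, had a log2 fold change of -0.18 (adjusted p = 0.412), and per kb IDH2 exceeded it in all 16 libraries, by medians of 11.0 times with Method BL and 13.5 times with Method QE. MDH1, the cytosolic malate dehydrogenase, exceeded MDH2 per kb of the longest transcript in all 16. That comparison depends on the length used: the longest transcripts had 1456 (MDH1) and 2374 bases (MDH2), the coding sequences 1059 and 1014. The 39 companion genes tested, those of the cycle and of pyruvate entry included, had 0 called between methods in edgeR, DESeq2 and limma-voom. At an unadjusted p below 0.05 there were 4 in edgeR. Between animals 25 were called. Leaving out each animal gave 20 (without r16010, against 23.6% of all genes tested) to 28 (without r15045, against 34.2%).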
